A study of Mus musculus with 18 samples.

Results

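The actin regulator genes described here are 10 genes of 4 families: the tropomodulins Tmod1, Tmod2, Tmod3 and Tmod4, the fascins Fscn1 and Fscn3, the profilins Pfn3 and Pfn4, and the Mical genes Mical1 and Mical3. They are 10 of the 54232 genes in the deposited count table and were taken from it by their symbols. They were chosen by earlier measured values of these data, namely the fold changes of Tmod4, Fscn3 and Mical3 in KO and KI against WT, and the other genes joined them as members of the same protein families. The levels of the 10 genes in KO and KI against WT are therefore given as a description, with no test. The label of late spermatid regulators rests on these levels too, since the libraries hold no separate late spermatid fraction.

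RNA was measured in round spermatids (RS), the haploid germ cells that follow meiosis and precede elongation, isolated from the testes of mice aged 75 to 85 days. Mice of 3 genotypes were compared, with 6 libraries each and 18 in all. WT mice were the controls, GRTH-KO mice (KO) lack the RNA helicase GRTH that the gene Ddx25 encodes, and GRTH-KI mice (KI) carry a human GRTH gene with a missense mutation and lack the phosphorylated form of the protein. Tubules were digested with collagenase to take away Leydig cells and then with trypsin, and RS were collected as fractions of a BSA gradient on which the germ cells had settled, so a fraction can hold other cells. Nothing in the labels says whether the libraries of a genotype came from separate mice. If they did not, the p-values below measure technical spread.

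Actin filaments grow at a barbed end and are held at a pointed end. Tropomodulins cap the pointed end together with tropomyosin. The broadly expressed profilin Pfn1 binds actin monomers and feeds them to growing filaments. Fascins bundle filaments into tight parallel arrays, and MICAL proteins are flavin monooxygenases that oxidize actin and take filaments apart. In the testis, actin bundles surround the spermatid head where it meets the Sertoli cell, and filaments within the spermatid lie between the acrosome and the nucleus. Fscn3, Pfn3 and Pfn4 are known as genes expressed mainly in testis, Tmod4 is best known from skeletal muscle, Tmod2 from neurons, Tmod1 from red cells and striated muscle, and Tmod3 and Fscn1 from many tissues.

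Promoter windows were read for the genes whose levels stood furthest from WT and for 2 paralogs that did not, to show what the DNA at these starts looks like. RefSeq windows on GRCm38.p6 run from 250 bases before to 50 bases from the start of a transcript and were at hand for 9 of the 10 genes. Tmod3 has no entry. Capitals mark matches to 5 motifs on either strand: the cyclic AMP response element (CRE) TGACGTCA, its half-site TGACG, which lies inside the full CRE, the TATA box TATAAA, the CCAAT box and the GC box GGGCGG. The CRE is the site bound by CREM, an activator of many genes in spermatids. Both Mical3 windows are shown, since RefSeq gives the gene 2 starts.
Tmod4, chr3:95124264-95124563, plus strand: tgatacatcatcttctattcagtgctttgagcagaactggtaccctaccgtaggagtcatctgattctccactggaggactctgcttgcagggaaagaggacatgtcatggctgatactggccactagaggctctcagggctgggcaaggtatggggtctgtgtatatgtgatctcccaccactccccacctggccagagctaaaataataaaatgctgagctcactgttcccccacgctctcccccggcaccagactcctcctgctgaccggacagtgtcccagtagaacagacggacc
Tmod1, chr4:46038972-46039271, plus strand: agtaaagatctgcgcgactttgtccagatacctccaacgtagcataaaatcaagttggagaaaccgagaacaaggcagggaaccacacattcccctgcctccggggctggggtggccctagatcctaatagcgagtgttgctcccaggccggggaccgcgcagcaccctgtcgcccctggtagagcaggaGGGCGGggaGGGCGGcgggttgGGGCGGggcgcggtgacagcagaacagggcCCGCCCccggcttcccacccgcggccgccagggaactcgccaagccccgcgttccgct
Fscn3, chr6:28427651-28427950, plus strand: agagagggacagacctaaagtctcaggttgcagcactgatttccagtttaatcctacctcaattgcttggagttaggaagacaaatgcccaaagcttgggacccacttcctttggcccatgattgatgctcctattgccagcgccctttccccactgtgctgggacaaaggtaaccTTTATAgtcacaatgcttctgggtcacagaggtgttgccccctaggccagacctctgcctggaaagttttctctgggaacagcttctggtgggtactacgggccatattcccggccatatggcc
Fscn1, chr5:142960105-142960404, plus strand: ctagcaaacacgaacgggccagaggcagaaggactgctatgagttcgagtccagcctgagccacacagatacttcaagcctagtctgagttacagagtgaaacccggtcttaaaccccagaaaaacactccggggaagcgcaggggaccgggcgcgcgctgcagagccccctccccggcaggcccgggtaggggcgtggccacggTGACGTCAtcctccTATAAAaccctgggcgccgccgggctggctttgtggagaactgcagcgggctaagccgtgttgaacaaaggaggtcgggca
Mical3, upstream start, chr6:121130973-121131272, minus strand: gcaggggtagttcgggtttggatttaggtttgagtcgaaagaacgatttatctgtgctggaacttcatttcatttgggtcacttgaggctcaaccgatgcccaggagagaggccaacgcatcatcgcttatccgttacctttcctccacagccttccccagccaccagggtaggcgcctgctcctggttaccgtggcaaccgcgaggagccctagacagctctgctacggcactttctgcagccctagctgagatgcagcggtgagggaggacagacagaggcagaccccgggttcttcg
Mical3, downstream start, chr6:121081578-121081877, minus strand: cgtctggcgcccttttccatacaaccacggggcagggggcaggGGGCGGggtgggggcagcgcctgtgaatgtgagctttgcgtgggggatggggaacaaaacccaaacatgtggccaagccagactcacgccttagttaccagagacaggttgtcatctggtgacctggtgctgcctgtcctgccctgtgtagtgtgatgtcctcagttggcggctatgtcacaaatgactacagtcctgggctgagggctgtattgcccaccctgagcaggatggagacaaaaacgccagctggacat

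The window of Tmod4 and that of the upstream start of Mical3 held none of the 5 motifs. The Fscn3 window held a TATA box on the opposite strand, with its first base 74 bases before the start, and the downstream Mical3 window held 1 GC box. Of the 9 genes with a window, the full CRE was found in Fscn1 alone, 45 bases before the start, and it was followed by a TATA box 31 bases before the start. Pfn3 held 2 half-sites and 3 GC boxes and no full CRE, and Tmod1 held 4 GC boxes. Over all 32851 windows, 1.79% held the full CRE, 20.8% the half-site, 13.6% the TATA box, 37.4% the CCAAT box and 35.7% the GC box. These matches describe the letters of the windows and do not show that a factor binds there.

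Each library held from 18766971 to 26776555 assigned counts. Levels below are in normalized CPM (counts per unit of library size, scaled with edgeR's TMM factors). The floor of detection was set at 3 counts, which lay between 0.112 and 0.160 CPM by library and covers counting error only. The targeted gene Ddx25 lay between 538 and 607 CPM in WT, between 47.7 and 90.9 CPM in KO and between 0.0456 and 0.519 CPM in 5 KI libraries. The library labelled KI 4 held 56.9 CPM of it, a KO-like value that goes against its label, and KI values are also given without this library. KI mice carry a human GRTH gene and the reads were aligned to the mouse genome, so the Ddx25 values need not reflect the RNA of that gene. The paper states that KI mice keep the non-phosphorylated protein. Libraries also lay in close pairs by a pair index, in which 1 stands for counting noise. The lowest index, 1.59, joined KO 2 and the library labelled KI 4, and those of WT 1 and 2, WT 3 and 4, WT 5 and 6, KO 4 and 5, KI 1 and 2 and KI 3 and 5 were 2.14, 2.86, 3.24, 2.05, 2.61 and 2.73. All remaining pairs had an index of at least 4.73. If close pairs share a source, the p-values below are too small. All 9 markers of round spermatids had a median count over the floor in each genotype.

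In WT, Fscn3, Pfn4 and Pfn3 stood far above the other genes per length of exon. Fscn3 lay at 56.4 ± 6.38 CPM per kb (SD, n = 6) and Pfn4 at 52.3 ± 5.25, and their libraries overlapped. Pfn3 followed at 34.5 ± 5.27, apart from its neighbours in the order on both sides. Mical3 at 8.52 ± 1.97, Tmod2 at 5.19 ± 2.26, Tmod1 at 3.10 ± 0.367, Tmod4 at 2.79 ± 0.929 and Fscn1 at 2.44 ± 0.277 CPM per kb followed, each overlapping the next. Tmod3 at 0.947 ± 0.105 CPM per kb lay below them, and Mical1 was lowest at 0.0220 ± 0.0179. The exons of Mical3 sum to 22950 bases in the table and those of Pfn4 to 4780 bases, while their longest coding transcripts have 9204 and 1396 bases. Per kb of the longest coding transcript, Pfn4 led at 178.9 CPM and Fscn3 followed at 61.8. Pfn3 at 34.5 and Mical3 at 21.2 kept the third and the fourth place but lay closer together, and Fscn1 and Tmod3 changed places.

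**Figure D1:**
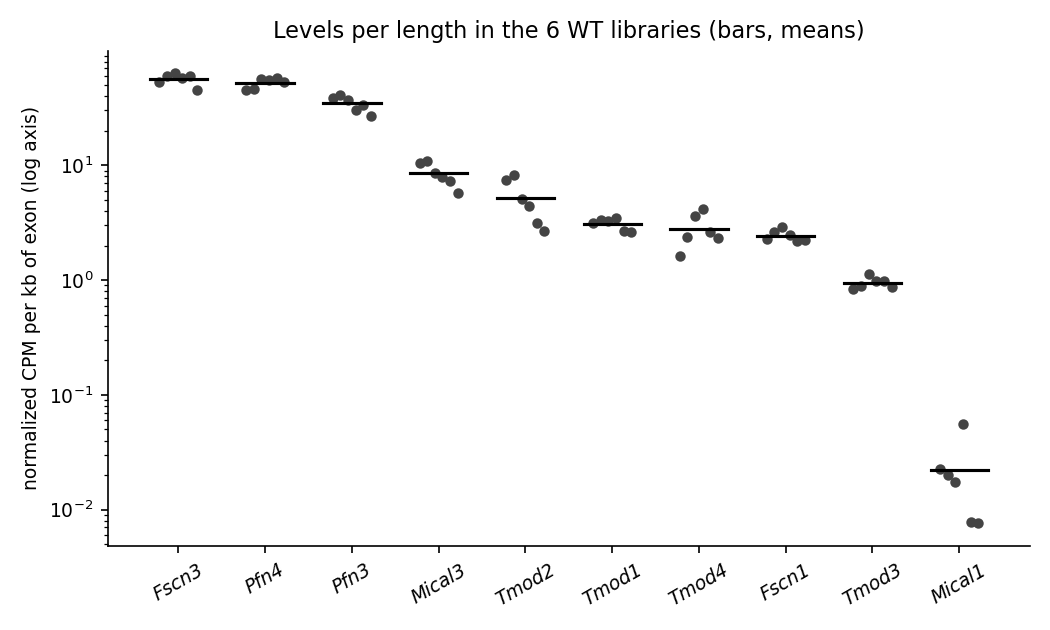
Levels of the 10 genes in the 6 WT libraries, in normalized CPM per kb of exon on a log axis, with points for libraries and bars for means. Fscn3, Pfn4 and Pfn3 lie at 34.5 CPM per kb or more on average, and Mical1 lies at 0.0220.

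Of the tropomodulins, Tmod4 was nearly absent from the mutant libraries and its 3 paralogs were not. Tmod4 (ENSMUSG00000005628, chromosome 3, 95124476 to 95129209, plus strand) had 61, 102, 117, 147, 96 and 86 counts in WT 1 to 6. It had 1, 5, 8, 6, 4 and 0 counts in KO 1 to 6 and 3, 4, 9, 1, 3 and 3 counts in KI 1 to 6. Every mutant library thus lay below every WT library, and 2 KO and 4 KI libraries were at the floor. In normalized CPM, WT ranged from 2.79 to 7.13 (median 4.32), KO from 0 to 0.380 (median 0.189) and KI from 0.0423 to 0.411 (median 0.136). The log2 fold change was -4.74 in KO (standard error 0.40) and -4.80 in KI (standard error 0.41), or -4.61 in KI without the library labelled KI 4. As a ratio of summed counts per total, 609 counts in WT against 24 in KO, Tmod4 was 24.8 times higher in WT (95% exact interval of counting error 16.5 to 39.1). Against the 23 counts in KI it was 25.8 times higher (17.1 to 41.1).

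Tmod1 (ENSMUSG00000028328), a capper of filaments in red cells and muscle, had nearly the same level in each genotype. It ranged from 10.4 to 13.8 CPM (median 12.7) over the WT libraries, from 9.21 to 14.4 (median 13.2) over KO and from 10.7 to 15.5 (median 12.96) over KI, and the log2 fold changes were 0.06 and 0.08 (standard error 0.14 each). Tmod3 (ENSMUSG00000058587), the broadly expressed member, ranged from 9.33 to 12.5 CPM (median 10.4) over the WT libraries, from 10.8 to 16.5 (median 12.9) over KO and from 11.02 to 15.96 (median 13.3) over KI. Its log2 fold changes were 0.34 and 0.31 (standard error 0.13 each) and its libraries overlapped between genotypes.

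Tmod2 (ENSMUSG00000032186), the neuronal tropomodulin, varied widely among the libraries of WT and of KO. In WT 1 to 6 it was 87.0, 96.5, 60.0, 52.0, 36.9 and 31.2 CPM, in KO 1 to 6 90.4, 26.3, 17.6, 51.1, 50.1 and 35.9 CPM, and in KI 1 to 6 25.9, 30.3, 20.1, 28.0, 22.95 and 29.7 CPM. The KO libraries overlapped those of WT and reached below them, while all KI libraries lay below the lowest WT library. The highest library was 3.09 times the lowest in WT, 5.13 times in KO and 1.51 times in KI. Within the close pairs the higher library was at most 1.18 times the lower, so that WT 1 and 2 were highest, WT 3 and 4 came next and WT 5 and 6 were lowest. The log2 fold changes were -0.42 in KO (standard error 0.30) and -1.21 in KI (standard error 0.31), or -1.23 in KI without the library labelled KI 4.

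**Figure D2:**
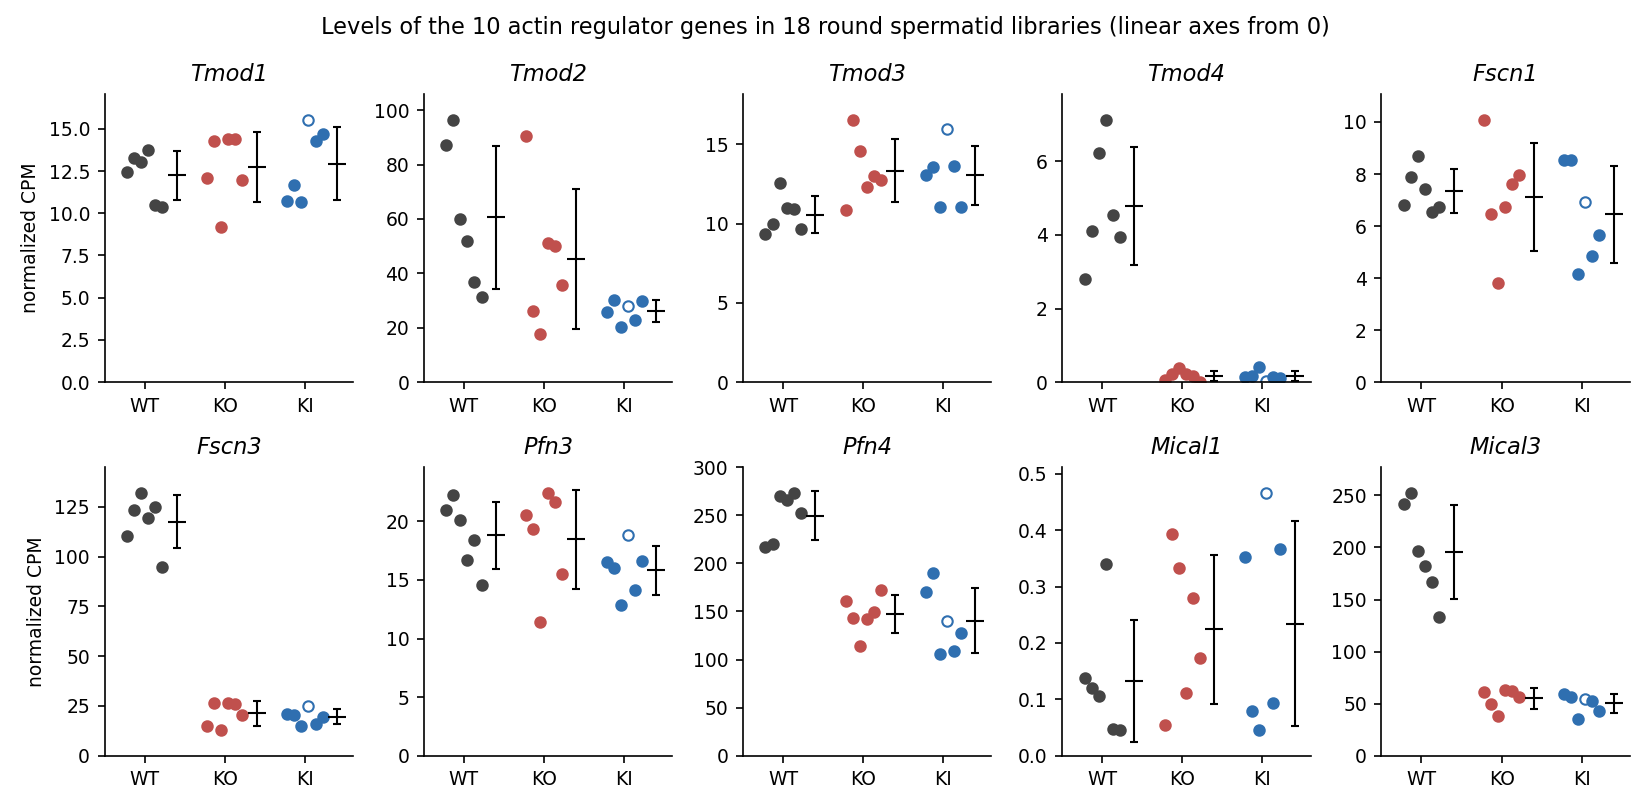
Levels of the 10 genes by genotype in normalized CPM on linear axes from 0, with a point for each library, an open point for the library labelled KI 4, and the mean with SD (n = 6) beside the points. Tmod4, Fscn3, Pfn4 and Mical3 lie lower in every KO and KI library than in every WT library.

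Of the fascins, Fscn3 was far lower in both mutants and Fscn1 overlapped between genotypes. Fscn3 (ENSMUSG00000029707, chromosome 6, 28427789 to 28438622, plus strand) ranged from 94.7 to 131.9 CPM (median 121.6) over the WT libraries, from 12.7 to 26.5 (median 23.3) over KO and from 14.8 to 25.1 (median 20.1) over KI. The highest mutant library lay far below the lowest WT library. The log2 fold changes were -2.47 in KO and -2.59 in KI (standard error 0.18 each), which are 5.53-fold and 6.03-fold lower, and -2.68 in KI without the library labelled KI 4. Fscn1 (ENSMUSG00000029581), the fascin of filopodia, ranged from 6.54 to 8.71 CPM (median 7.12) over the WT libraries, from 3.80 to 10.1 (median 7.17) over KO and from 4.15 to 8.54 (median 6.31) over KI. Its genotypes overlapped and its log2 fold changes were -0.05 and -0.19 (standard error 0.20 each). Fscn2, the fascin of the retina and the inner ear, averaged 0.772 ± 0.206 CPM over WT, 0.486 ± 0.222 over KO and 0.329 ± 0.131 over KI (SD, n = 6). Fscn2 is a gene of the wider actin list below and was tested: it was lower in KI (log2 fold change -1.23, standard error 0.34, adjusted p = 0.00998 by glmQLFTest in edgeR), and in KO the log2 fold change was -0.66 (standard error 0.32, adjusted p = 0.155). Without KO 5, the log2 fold change in KO was -0.84 and was called, and with the close pairs summed and the library labelled KI 4 left out the call in KI was lost, at -1.09.

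Of the profilins, Pfn4 was lower in both mutants and Pfn3 overlapped between genotypes. Pfn4 (ENSMUSG00000020639, chromosome 12, 4769022 to 4778813, plus strand), which is linked to the acroplaxome and manchette of spermatids, ranged from 217.4 to 273 CPM (median 259.4) over the WT libraries, from 114.1 to 172.5 (median 146.3) over KO and from 105.4 to 190.0 (median 133.9) over KI. The ranges did not overlap with WT. The log2 fold changes were -0.76 and -0.83 (standard error 0.15 each), 1.70-fold and 1.78-fold lower. Pfn3 (ENSMUSG00000044444, chromosome 13, 55414688 to 55415232, minus strand) ranged from 14.5 to 22.3 CPM (median 19.3) over the WT libraries, from 11.4 to 22.4 (median 19.9) over KO and from 12.9 to 18.8 (median 16.3) over KI. Its log2 fold changes were -0.03 and -0.25 (standard error 0.15 each). All 545 bases of Pfn3 lie within Slc34a1 on the opposite strand, and the counting used strand. The broadly expressed profilin Pfn1, which was not used to choose the genes and was tested in the wider list, went the other way. It lay between 17.3 and 30.2 CPM in WT, 38.5 and 68.1 in KO and 37.3 and 64.1 in KI. It rose by 1.09 on the log2 scale in KO (standard error 0.18, adjusted p = 9.18e-05) and by 1.08 in KI (adjusted p = 8.91e-05, standard error 0.18, glmQLFTest in edgeR), and the test against 1 log2 unit did not call it. Pfn2, the neuronal profilin, averaged 60.4 ± 2.10 CPM over WT, 54.3 ± 9.76 over KO and 51.5 ± 13.2 over KI (adjusted p = 0.518 and 0.284).

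Of the Mical genes, nearly all of the signal was Mical3. Mical3 (ENSMUSG00000051586, chromosome 6, 120931707 to 121130999, minus strand), which acts in vesicle docking as well as on actin, was 241.9, 252.1, 196.7, 181.9, 167.1 and 132.8 CPM in WT 1 to 6. It lay between 37.7 and 62.6 CPM over KO (median 59.0) and 34.8 and 59.4 over KI (median 53.6). Every mutant library lay below every WT library, and within WT the values followed the close pairs as they did for Tmod2. For Mical3 the log2 fold changes were -1.83 in KO and -1.96 in KI (standard error 0.17 each), 3.55-fold and 3.90-fold lower, and -1.99 in KI without the library labelled KI 4. Mical1 (ENSMUSG00000019823) did not pass the filter on low counts, with 1 to 7 counts per library in WT, 1 to 9 in KO and 1 to 11 in KI, and no fold change was fitted. Mical2 averaged 1.64 ± 0.515 CPM over WT, 1.59 ± 0.534 over KO and 1.41 ± 0.270 over KI (adjusted p = 0.905 and 0.565). The MICAL-like genes Micall1 and Micall2, which act in membrane traffic, were at 57.8 ± 8.77 and 2.22 ± 0.369 CPM in WT and were not called in KO or KI either (adjusted p between 0.606 and 0.995). Several antisense genes lie within Mical3, and of these Gm43915 passed the filter, at 0.660 ± 0.519 CPM in WT.

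**Figure D3:**
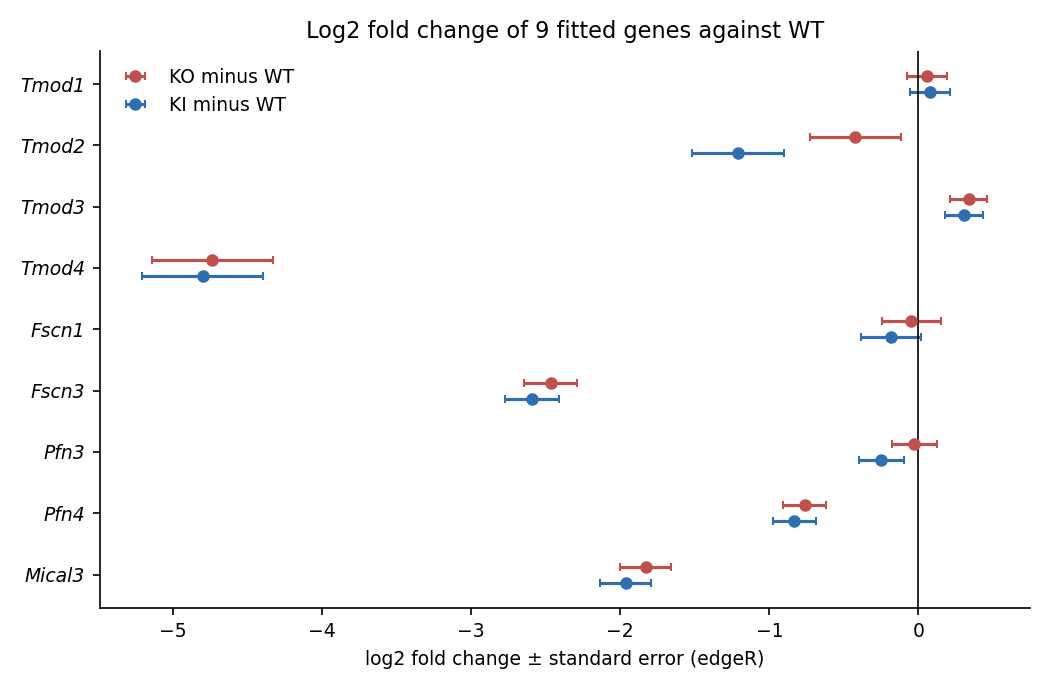
Log2 fold change of 9 genes in KO and KI against WT, in edgeR's fit over 18 libraries, with bars for the standard error. Tmod4, Fscn3 and Mical3 lie at -1.83 or below in both mutants, and Tmod1, Fscn1 and Pfn3 lie near 0. Mical1 had too few counts to be fitted.

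Counted over the 10 genes, 4 had all KO libraries below all WT libraries and 5 had all KI libraries below all WT libraries. Over all 21058 genes that passed the filter, 6.44% and 7.91% did so in KO and KI. These contrasts were used to choose the genes, so nothing is read from the counts. In bulk RNA, fewer cells of a type and less RNA per cell cannot be told apart. Markers of late round to elongating spermatids, among them the transition protein, protamine and outer dense fibre genes, moved with the genotype in the direction of Tmod4, Fscn3 and Mical3. All 10 of them fell past 1 log2 unit in KO and in KI (edgeR's glmTreat), beside 1.13% and 1.43% of all genes. The study had already named these markers among the changed genes of these data, so nothing is read from this count. Their summed level lay between 15678 and 21596 CPM in WT, between 1837 and 4616 in KO and between 2426 and 3747 in KI. The 9 round spermatid markers summed to between 727 and 1180 CPM in WT, 560 and 1212 in KO and 580 and 798 in KI. Of these 9, 1 fell in KO and 3 fell in KI by any amount, beside 13.5% and 15.4% of all genes, and none past 1 log2 unit. The part of either in the levels above was not tested. Tmod4 is best known from skeletal muscle, so 7 markers of that tissue were read as well. They summed to between 1.16 and 1.92 CPM in WT, 0.736 and 1.79 in KO and 0.593 and 1.31 in KI. Acta1, Myh4 and Tnnt3 had 3 or fewer counts in every WT library, while Mylpf had 9 to 20, Ckm 4 to 14, Myh1 0 to 12 and Des 1 to 7. Mylpf, the 1 marker that passed the filter, fell in KI by any amount, and Ckm averaged 0.417 ± 0.149 CPM over WT, 0.168 ± 0.0921 over KO and 0.116 ± 0.0450 over KI. Their part in the level of Tmod4 was not tested.

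The make-up of each family followed from these levels. Tmod4 held 23.8% ± 7.69 of the tropomodulin CPM per kb in WT and 1.42% ± 1.47 in KO and 1.55% ± 1.36 in KI (SD, n = 6). The share of Tmod1 was 26.3% ± 3.05 in WT, 39.8% ± 7.52 in KO and 48.1% ± 3.89 in KI. Fscn3 held 95.2% ± 0.425 of the fascin level in WT and was still the largest part in the mutants, with 79.1% ± 6.69 in KO and 80.4% ± 2.88 in KI. Fscn1 held 4.13% ± 0.391 in WT and 18.96% ± 6.17 and 18.2% ± 2.84 in KO and KI. Mical3 held 98.1% ± 0.502 of the Mical level in WT, 92.8% ± 3.80 in KO and 93.0% ± 1.69 in KI. Among 4 profilins, Pfn4 held 45.8% ± 3.34 in WT and 30.3% ± 2.58 and 31.0% ± 2.29 in the mutants, while that of Pfn1 was 8.83% ± 1.75 in WT, 21.5% ± 5.57 in KO and 22.4% ± 1.81 in KI. These shares are per kb of summed exon, and that of Pfn4 depends on its length: per kb of the longest coding transcript, Pfn4 was at 178.9 CPM and Pfn3 at 34.5 in WT.

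**Figure D4:**
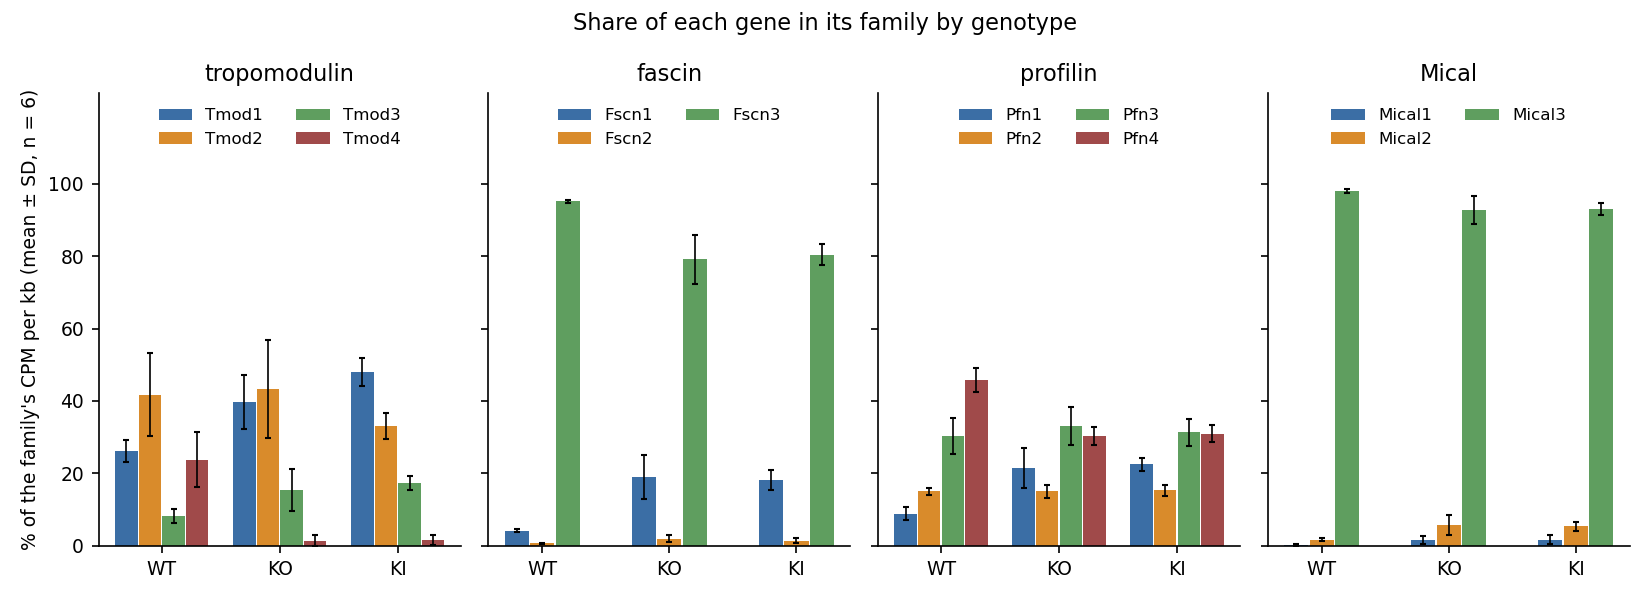
Percent of each family's summed normalized CPM per kb held by each gene, by genotype, as mean with SD over 6 libraries. Tmod4 shrinks from 23.8% in WT to under 2% in the mutants, and Fscn3 and Mical3 stay the largest part of their families.

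KI was compared directly with KO, a contrast that did not serve to choose the genes. None of the 9 fitted genes was called (edgeR's glmQLFTest), where 0.076% of all genes were called higher and 0.0237% lower in KI. Without the library labelled KI 4, the same test called 0 of the 9 and 111 of all 21257 genes tested. Of the members, Tmod2 was the only one with an unadjusted p under 0.05 by edgeR and also by DESeq2, which called 0 of 10 as well. Its log2 difference was -0.79 (standard error 0.31, unadjusted p = 0.0174, adjusted p = 0.961, edgeR's glmQLFTest), and without the library labelled KI 4 it was -0.81 (standard error 0.33, adjusted p = 0.449). With the close pairs summed as well, it was -0.69 (standard error 0.41) and the unadjusted p was 0.114 by the same test. The differences were -0.07 for Tmod4 (standard error 0.55), -0.12 for Fscn3 (standard error 0.17), -0.13 for Mical3 (standard error 0.17) and -0.07 for Pfn4 (standard error 0.14). The standard error of Tmod4 reflects its few counts, and a difference between the mutants of the size of its error was not detectable at this depth. Tmod4 passed the filter on low counts through its WT libraries, with 0 to 8 counts per KO library and 1 to 9 per KI library. Its lack of a call between the mutants is therefore not read as a result.

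The genes most like Tmod4, Fscn3 and Mical3 were found by Pearson's r of log2 CPM over the 18 libraries, which share their genotypes and close pairs, and are given with no test. For Fscn3 they were Oxct2b, Spem1, Ubqlnl, Gm498 and Herpud2, with r of 0.997 each, and 0.943 to 0.966 once the mean of each genotype was taken off. Spem1, needed for removal of cytoplasm from the sperm head, is also one of the late spermatid markers above. For Mical3 they were Gabarapl1, Tex47, Lexm, Adam25 and Lipe, with r between 0.980 and 0.983, and between 0.757 and 0.908 within genotypes. For Tmod4 they were Gstcd, Naa60, Eif4h, Herpud1 and 5031439G07Rik, with r between 0.951 and 0.963. Within genotypes the values for Tmod4 were lower, between 0.157 and 0.549. Without the library labelled KI 4, 5 of these 5 genes remained among the top 5 of Fscn3, 4 of Mical3 and 2 of Tmod4, and once genotype means were taken off, 3, 1 and 0 remained. Among the 21057 other genes, r was above 0.9 for 551 genes with Fscn3, 590 with Mical3 and 159 with Tmod4. Over all libraries r includes the difference between WT and the mutants, which served to choose the 3 genes, so nothing is read from these counts. The 3 genes themselves had r of 0.916 (Tmod4 and Fscn3), 0.867 (Tmod4 and Mical3) and 0.963 (Fscn3 and Mical3) over all libraries, and -0.18, -0.49 and 0.53 within genotypes.

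Of the tested genes within 20 kb of Tmod4, Fscn3 or Mical3, none passed the test against 1 log2 unit in KO or KI, and 3 of the 10 were called at any amount of change. Over all genes tested, 16.4% were called higher and 13.5% lower in KO and 16.1% and 15.4% in KI, so the share among the neighbours lay near the background. Near Tmod4, the spliceosome gene Scnm1, which lies 327 bases downstream on the opposite strand, fell by 0.37 on the log2 scale in KO (standard error 0.10, adjusted p = 0.0100) and by 0.29 in KI (adjusted p = 0.0396, standard error 0.10, glmQLFTest in edgeR). The call in KI was lost without WT 3, where its log2 fold change was -0.19. With the close pairs summed and the library labelled KI 4 left out, Scnm1 was called in neither mutant, at -0.36 in KO and -0.27 in KI. Vps72, Pip5k1a, Lysmd1 and Gm9169, the other tested genes there, had log2 fold changes between -0.14 and 0.14 and were not called. Next to Fscn3, both tested genes rose. Gcc1, a golgin that overlaps Fscn3 by 602 bases on the opposite strand, rose by 0.59 in KO (standard error 0.14, adjusted p = 0.00396) and by 0.43 in KI (standard error 0.14, adjusted p = 0.0295, a call lost with the close pairs summed, at 0.37). Arf5, a small GTPase gene on the same strand 1187 bases upstream, rose by 0.68 in KO (standard error 0.13, adjusted p = 0.000376) and by 0.60 in KI (adjusted p = 0.00116, standard error 0.13, glmQLFTest in edgeR). Near Mical3, the apoptosis gene Bid and the predicted genes Gm44260 and Gm43915 were tested and not called in KO or KI (adjusted p between 0.223 and 0.844).

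In a wider list of 108 genes that act on actin, without the 10, the shares called against WT lay above those of all genes. The list was drawn up with earlier results of these data known, so nothing is read from this excess. Of the 99 that passed the filter, 2 were higher and 2 lower in KO by edgeR's glmTreat, where 0.598% and 1.13% of all genes were. In KI, 1 was higher and 2 were lower, where 0.522% and 1.43% of all genes were. For changes of any amount, 20 rose, 22 fell and 57 were not called in KO, beside 16.4% higher and 13.5% lower of all genes. In KI, 19 rose, 27 fell and 53 were not called, beside 16.1% and 15.4%. The median log2 fold change over the list was 0.04 in KO and -0.03 in KI, and over all genes tested 0.03 and 0.05. In KI against KO, 0 of the 99 were called by edgeR and 0 of 108 by DESeq2, with 2 and 4 at an unadjusted p under 0.05. Without the library labelled KI 4, edgeR's glmQLFTest called 0 of the 99, with 7 at an unadjusted p under 0.05. It called 111 of all 21257 genes tested in that setting. When the close pairs were summed and the library labelled KI 4 was left out, the list held 13 higher and 11 lower genes in KO and 10 and 13 in KI for changes of any amount, with fewer libraries in the fit.

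The genes that fell past 1 log2 unit both act on filament growth. Vasp, which sits at barbed ends and speeds their elongation, lay between 60.8 and 86.0 CPM in WT (median 79.3), between 11.7 and 18.8 in KO and between 11.2 and 18.6 in KI. It fell by 2.38 on the log2 scale in KO (standard error 0.14, adjusted p = 5.82e-07) and, with a standard error of 0.14, by 2.42 in KI (adjusted p = 3.20e-07, edgeR's glmTreat). Wasf2, a subunit of the WAVE complex that switches on the Arp2/3 complex, lay between 98.5 and 143.7 CPM in WT (median 121.6), between 21.7 and 35.0 in KO and between 26.0 and 32.9 in KI. It fell by 2.01 in KO (standard error 0.13, adjusted p = 1.58e-05) and, with a standard error of 0.13, by 2.03 in KI (adjusted p = 7.65e-06, edgeR's glmTreat). The genes that rose past 1 log2 unit are relatives of gelsolin, which sever and cap filaments, at low levels. Avil averaged 0.305 ± 0.218 CPM over WT, 1.93 ± 0.394 over KO and 1.85 ± 0.318 over KI (SD, n = 6), log2 fold changes of 2.63 and 2.57 (standard error 0.32 each, adjusted p = 0.00268 and 0.00340, edgeR's glmTreat). Scin had 0 to 2 counts per library in WT, 3 to 19 in KO and 4 to 17 in KI. No WT library reached the minimum of the filter on low counts, so Scin was tested only through the mutant libraries in which it was high, and Avil, with 2 to 14 counts per WT library, nearly so. The summed counts of Scin were 15.1 times higher in KO (95% exact interval of counting error 6.19 to 47.9) and 10.2 times in KI (4.11 to 32.9), with adjusted p = 0.0181 in KO and 0.125 in KI (edgeR's glmTreat), and 0.0856 in KI without the library labelled KI 4. Leydig cell markers were also higher in the mutants, but unevenly among the KI libraries. All 7 were higher in KO and KI by any amount, beside 16.4% and 16.1% of all genes. Their sum lay between 10.8 and 22.4 CPM in WT, 34.2 and 58.9 in KO and 14.7 and 74.8 in KI. Its median was 35.9 CPM in KI and 20.4 without the library labelled KI 4, the latter within the WT range. Endothelial markers summed to between 11.2 and 18.04 CPM in WT, 16.8 and 29.99 in KO and 20.2 and 28.2 in KI, with 2 of 5 higher by any amount in each mutant. Spermatogonium markers summed to between 29.4 and 39.9 CPM in WT, 33.1 and 70.6 in KO and 20.8 and 72.9 in KI, with 2 of 7 higher in KO and 1 in KI. The part of these markers in the higher levels of Avil and Scin was not tested.

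**Figure D5:**
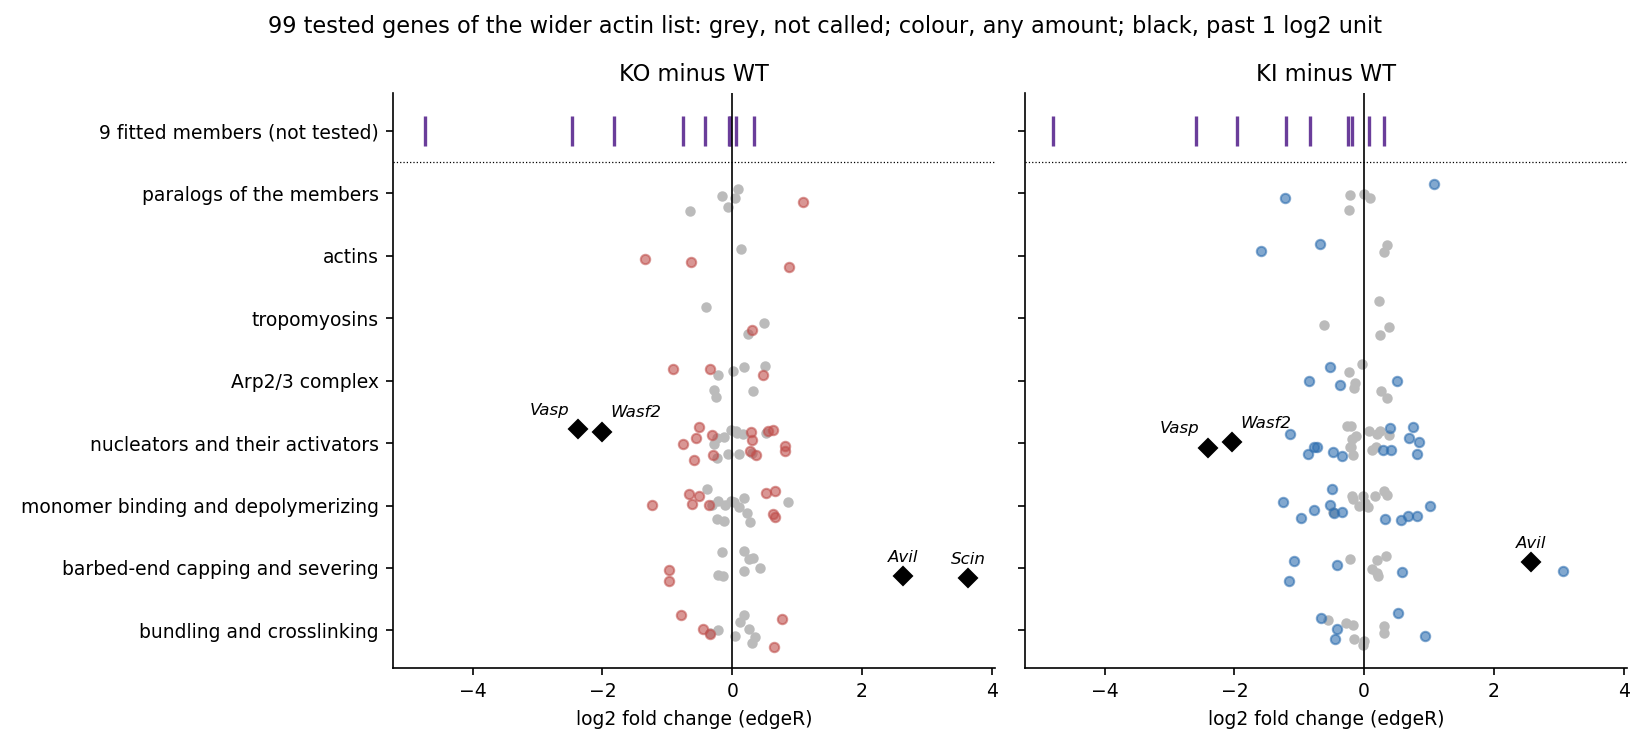
Log2 fold change against WT of the 99 tested genes of the wider actin list, by group, in KO and KI, with grey points for genes not called, coloured points for changes of any amount and black diamonds for changes past 1 log2 unit. The 9 fitted genes of the report stand above as lines and were not tested, and most points lie within 1 log2 unit of 0.

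Past 1 log2 unit, no gene was called among the actins, the Arp2/3 complex, the bundling genes, the monomer-binding genes, the paralogs or the tropomyosins, and the changes below are those of any amount. Over all genes tested, 16.4% were called higher and 13.5% lower in KO, and 16.1% and 15.4% in KI. Nothing is read from the counts by group. Of 4 tested actins, 1 rose in KO and 2 fell in both mutants: Actb, the most abundant in WT at 206.2 ± 29.7 CPM per kb, by 0.64 in KO and 0.68 in KI, and Actg2, known as the smooth muscle actin of gut, by 1.35 and 1.59 (adjusted p between 2.4e-05 and 0.00336, edgeR's glmQLFTest). In the Arp2/3 complex, which starts branches, 1 gene rose and 2 fell in KO and 1 rose and 3 fell in KI of 10 tested. Arpc1a fell by 0.91 and 0.85, and Arpc2, the most abundant per length, was not called (adjusted p = 0.332 and 0.506). Of 28 tested nucleators and activators, 8 rose and 8 fell in KO and 7 and 8 in KI. Among 22 genes of monomer binding and depolymerizing, 4 rose and 5 fell in KO and 5 and 7 in KI. Tmsb10, a monomer sequesterer at 405.2 ± 94.5 CPM per kb in WT, was not called, and the testis kinase Tesk1 had a log2 fold change of -0.31 in KO (adjusted p = 0.311) and fell by 0.53 in KI (adjusted p = 0.0615, edgeR's glmQLFTest). Of 12 tested capping and severing genes, 2 rose and 2 fell in KO and 3 and 3 in KI. Capza3, the capping protein subunit of spermatids, fell by 0.98 and 1.08 (standard error 0.18 each), while Capza1 had values of 0.32 and 0.22 and was not called (adjusted p = 0.174 and 0.368). Of 13 bundling and crosslinking genes, 2 rose and 3 fell in each mutant, and Dbn1, the most abundant per length, was not called (adjusted p = 0.937 and 0.968). Of the tropomyosins, the partners of tropomodulins at pointed ends, Tpm3 rose by 0.31 in KO (adjusted p = 0.0407), was at 0.22 in KI (adjusted p = 0.141, edgeR's glmQLFTest), and Tpm4 was not called. The leiomodins Lmod1, Lmod2 and Lmod3, muscle relatives of the tropomodulins, did not pass the filter, with at most 9 counts in any library.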

How the data were processed

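RNA-seq libraries of RS, made from total RNA without polyA selection, were compared between 3 genotypes with 6 libraries each. After trimming with cutadapt 3.4 and alignment to GRCm38 with STAR 2.7.8a, the authors ran featureCounts (Subread 2.0.1) by strand on GENCODE M18 genes and deposited the raw counts per gene, with duplicates marked and kept. The processing notes also list FastQC 0.11.9, SAMtools 1.12 and Bowtie2, which the study used for small RNA reads, not analysed here. The exon length per gene, also deposited, gave CPM per kb. Each of the 18 count columns was mapped to its library, and 0 columns were left unmapped. Of 54232 identifiers, 54079 had a symbol.

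The members and the lists were chosen with earlier results of these data known. The count model was edgeR 4.0.16 (with limma 3.58.1, R 4.3.3): filterByExpr kept 21058 genes, TMM factors scaled them, and 1 quasi-likelihood fit with genotype held all libraries. On this fit, glmTreat tested for a change past 1 log2 unit and glmQLFTest for one of any amount, at a Benjamini-Hochberg adjusted p under 0.1 over all genes tested. The fit gives no standard error, so each was derived as the absolute log2 fold change over the square root of the F statistic of glmQLFTest. The genes named are the 10 members, Ddx25, their paralogs, list genes past 1 log2 unit, the 2 most abundant per length of each group of the list, tested neighbours within 20 kb, and the 5 genes most like Tmod4, Fscn3 and Mical3 (log2 CPM, prior count 2). One gene that this rule names is not reported here. DESeq2 1.42.0, other filters and scalings, the replicate block, left-out libraries and summed close pairs were tried as alternatives. The test code was tested on simulated data. The pair index used genes with at least 20 counts in a pair. Python 3.11.15 with pandas 2.3.3, scipy 1.17.1 and matplotlib 3.10.9 served for counting intervals, sequences and plots. Promoter windows are from RefSeq on GRCm38.p6.

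Same-numbered libraries did not deviate together: 7 of 18 correlations of their deviations were over 0.1, in a range of -0.44 to 0.48. Of the marker lists not given in the report, in WT, KO and KI, spermatocyte markers summed to between 949 and 1287, 1040.3 and 1379, and 1055 and 1382 CPM. Sertoli markers summed to between 10.2 and 19.5, 8.27 and 16.2, and 8.65 and 16.5, and myoid markers to between 4.89 and 6.63, 5.00 and 6.64, and 4.15 and 6.85. Macrophage markers summed to between 6.87 and 9.57, 6.05 and 12.0, and 9.35 and 13.5, and red blood cell markers to between 2.09 and 3.22, 0.927 and 3.06, and 2.00 and 3.83. Over all genes tested, 16.4% rose and 13.5% fell by any amount in KO, and 16.1% and 15.4% in KI. By any amount, 3 of 8 spermatocyte markers rose and 2 fell in KO, and 1 rose and 1 fell in KI. Of 6 tested Sertoli markers 1 fell in each mutant. Of 4 tested myoid markers 2 rose in KO, 1 of them past 1 log2 unit, and 1 fell, and 1 rose and 1 fell in KI. Of 6 tested macrophage markers 2 rose and 1 fell in each mutant. Of 2 tested red blood cell markers 1 fell in each mutant and 1 rose in KI.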

Additional observations from a re-analysis of the deposited data

Results flagged for a closer look

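In 2 of 30 groups of 6 libraries, 1 per gene and genotype, a library stood apart from the others by Dixon's test, and chance flags about 1 in 20. Tmod4 in the library KI 3 was 0.411 CPM, from 9 counts, above the other KI libraries. Mical1 in the library WT 4 was 0.339 CPM, from 7 counts, where the other 5 WT libraries were at the floor of 3 counts.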

How the results depend on the processing

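Some counts of the wider actin list moved by over 1.5 times. With at least 10 counts in every library, 0 genes were higher past 1 log2 unit in KO and 0 in KI, with 88 genes tested. With only the compared genotypes in the fit, 1 was higher in KO. With the interval form of glmTreat, chosen after seeing the data, 2 were higher in KI. With the close pairs summed and the library labelled KI 4 left out, 13 were higher and 11 lower in KO by any amount, and 10 and 13 in KI. Leaving out 1 library at a time moved no count of changes of any amount by that much, and gave 16 to 21 higher and 17 to 24 lower in KO, and 16 to 22 higher and 22 to 29 lower in KI, by any amount. Past 1 log2 unit it gave 2 and 2 in KO, and 1 to 2 higher and 2 to 3 lower in KI, where leaving out KO 6, KI 2 or KI 4 gave the 2. In KI against KO it gave 0 for the members and 0 for the list. The cause was not tested.

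With the replicate number as a block, which the labels do not tie to a shared mouse or day, 18 list genes were higher and 22 lower in KO and 17 and 28 in KI by any amount, and 0 members were called in KI against KO. Among single genes, the block made the lower level of Fscn2 in KO a call, at -0.71. With the close pairs summed, Scnm1 in KO and KI, Fscn2 in KI and Gcc1 in KI were no longer called, and Scnm1 in KI was not called without the filter on low counts or with only the compared genotypes. The log2 fold change of Fscn1 in KO ranged from -0.17 to 0.08 and that of Pfn3 in KO from -0.10 to 0.08, so their signs are not set. That of Tmod4 ranged from -5.08 to -4.48 in KO and from -5.26 to -4.60 in KI. At 0 to 9 counts per mutant library, depth limits the size of the Tmod4 difference and any difference between KO and KI.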
